A study of Mus musculus with 2 samples.

Results

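The 46 genes described here encode transcription factors that set and keep the identity of midbrain neurons, and they were taken from a fixed list of gene symbols among the 55450 genes counted in nuclei of the mouse ventrolateral periaqueductal gray (vlPAG), a midbrain region. All 46 were found by symbol, and their identifiers matched the same names in the GENCODE vM21 annotation of GRCm38. The data are 2 single-nucleus RNA libraries of wild-type C57BL/6 mice, 1 per diet. Mice started at 8 weeks of age on a normal food diet (NFD) or a high-fat diet (HFD), which makes mice obese, and tissue was taken after 7 weeks. Tissue of 18 mice was combined for each library, so no comparison between the diets has a replicate, and no test between them was made.

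Lineage transcription factors are switched on as neurons are born and many stay on for life. Gata2, Gata3 and Tal1 take part in the development of GABAergic neurons. Lmx1b and the engrailed genes En1 and En2 are needed by serotonergic and dopaminergic neurons. LIM homeodomain genes such as Lhx2 and Lhx9 mark several kinds of excitatory neurons. A neuron type is usually described by a combination of such factors rather than by a single one. The questions addressed here were which factors each group of vlPAG neurons held, which were found together in 1 nucleus, and how their levels differed between the diet libraries.

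After nuclei with 500 or fewer unique molecular identifiers (UMIs, 1 per RNA molecule captured) or at least 20% mitochondrial counts were left out, 7500 NFD and 6322 HFD nuclei remained, with medians of 4504.5 and 7347.5 UMIs. The 46 members made up 4496 UMIs of every 1000000 (CPM) in NFD and 4732 in HFD. The libraries shared 13 cell barcodes. One group of nuclei goes against the tissue label: 761 HFD nuclei (12%) and 9 NFD nuclei (0.12%) held markers of cerebellar granule neurons, and they were kept apart from every comparison of the diets below.

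Nuclei were clustered without the 46 members, so the members themselves did not set the clusters, but genes that vary with them could. Transcripts named after members were not left out. Six3os1 was among the leading genes of GABAergic subcluster 2 and Otx2os1 of glutamatergic cluster 8. A class was called GABAergic or glutamatergic where the transporter and enzyme genes of one transmitter had at least 2-fold the CPM of the other. The GABAergic class of 4742 nuclei held 320.1 CPM of Gad2, 96.7 of Gad1 and 43.6 of Slc32a1. The glutamatergic class of 2919 nuclei rested on 1 gene, Slc17a6, which was found in 63.3% of them, while Slc17a7 was found in 0.445% and Slc17a8 in 0.343%, and its 4 clusters are therefore given by number. The GABAergic cluster nearest the threshold, which holds most of subclusters 5 and 6 below, had 248 CPM of GABA and 114 of glutamate markers. A further cluster of 2190 nuclei, called mixed here, held both Gad2 (103 CPM) and Slc17a6 (109.5 CPM). The 415 serotonergic nuclei held 1819 CPM of Tph2, the enzyme that starts serotonin synthesis. The 339 dopaminergic nuclei held 76.2 CPM of Th and 23.1 of Slc6a3, the dopamine transporter gene. Of the GABAergic nuclei, 3735 with a UMI of Slc32a1, Gad1 or Gad2 fell into 8 subclusters, numbered by size.

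Each factor had its highest level in nearly the same group of neurons under both diets. Over the 8 GABAergic subclusters, the 4 glutamatergic clusters and the mixed, serotonergic and dopaminergic nuclei, 43 of the 46 members peaked in the same 1 of the 15 groups in both libraries. The exceptions were Tal1, Tshz2 and Foxp1. Tal1 had 42.7 CPM in NFD and 32.3 in HFD in GABAergic subcluster 3, and 36.3 CPM in NFD and 35.9 in HFD in subcluster 2, so these neighbours in the order lay within the counting error of each other. Foxp1 was the flattest of the named factors, between 95.8 and 175 CPM over the 15 groups in NFD. Tshz2 stood at 384 CPM in glutamatergic cluster 8, its highest group in NFD, and at 394 CPM in GABAergic subcluster 1, its highest in HFD.

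**Figure D1:**
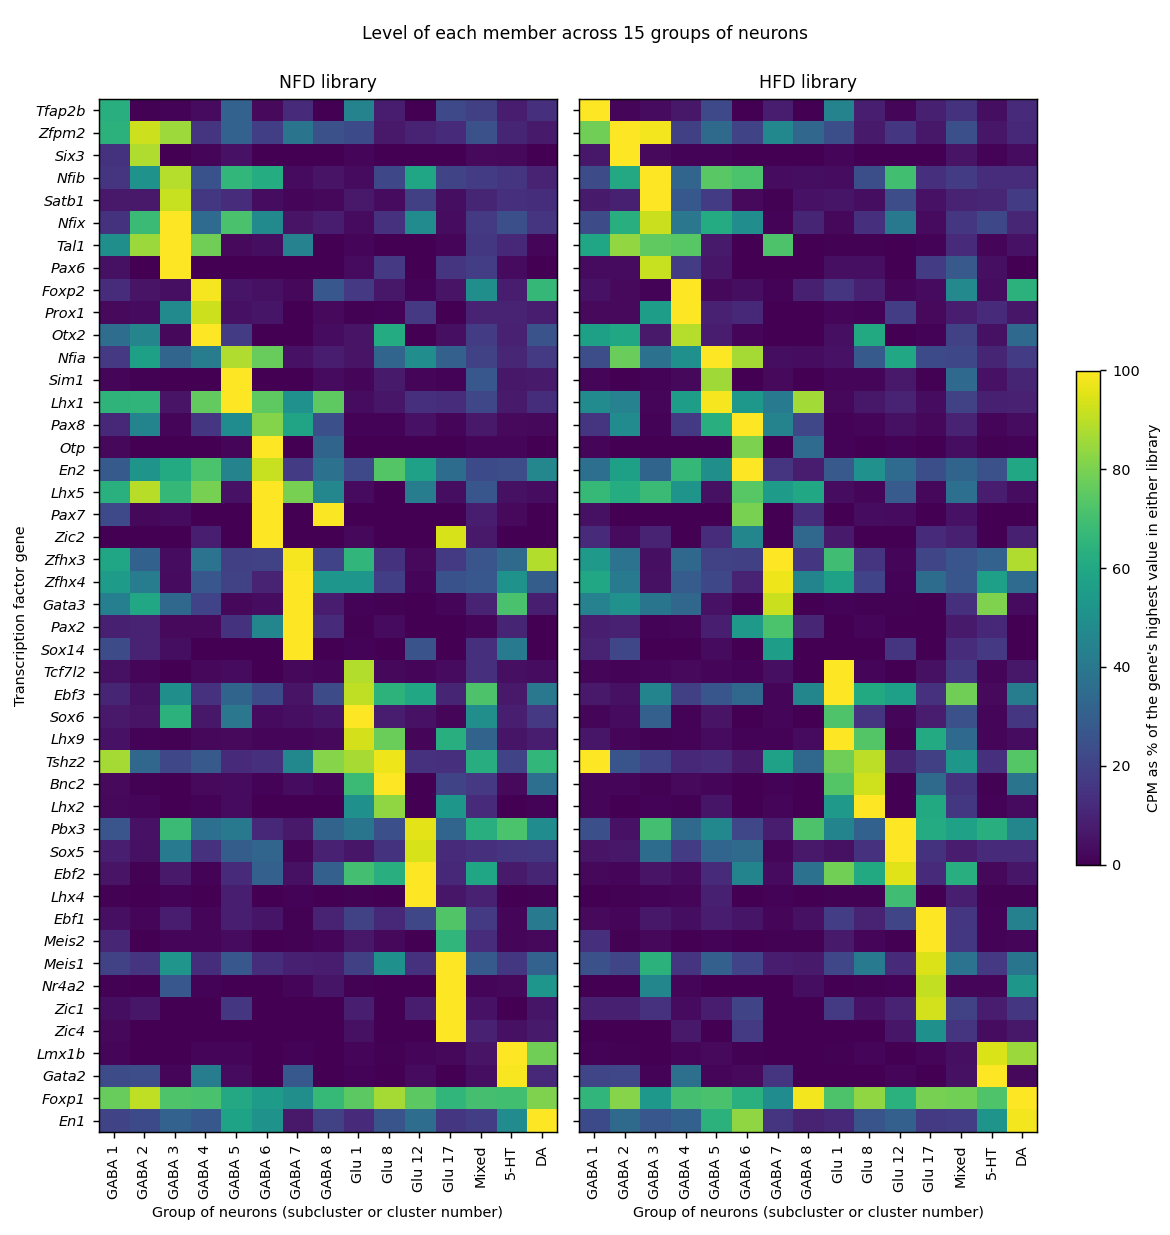
Level of each of the 46 factors (rows) in 15 groups of neurons (columns: GABA 1 to 8, GABAergic subclusters; Glu 1, 8, 12 and 17, glutamatergic clusters; Mixed, the mixed cluster; 5-HT, serotonergic; DA, dopaminergic) in the NFD library on the left and the HFD library on the right. Colour is CPM as a percent of that gene's highest value in either library, and 43 of the 46 rows are brightest in the same column in both panels.

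GABAergic and glutamatergic nuclei differed sharply in Gata3 and Tal1, although Gata3 was higher in serotonergic nuclei (72.4 CPM in NFD and 82.2 in HFD) than in either class. Gata3 had 35.9 CPM (33 to 39) in NFD and 34.5 CPM (32.1 to 37.2) in HFD in GABAergic nuclei, where the intervals are exact 95% limits for counting error, and 0.991 CPM in NFD and 0.666 in HFD in glutamatergic nuclei. Tal1, a partner of Gata factors, had 21.7 CPM in NFD and 23.2 in HFD in GABAergic nuclei and 0.595 CPM in NFD and 0.266 in HFD in glutamatergic nuclei, where it rested on 6 and 4 UMIs. Over the whole classes both genes were therefore higher in GABAergic than in glutamatergic nuclei of either diet. These are low-copy nuclear RNAs: in nuclei thinned to 1000 UMIs each, which sets all nuclei to the same depth, Gata3 was found in 3.78% of GABAergic and 0.0343% of glutamatergic nuclei, beside 0.457% of endothelial and mature oligodendrocyte nuclei, which served as the background.

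Gata3 and Tal1 were nearly absent from part of the GABAergic class. Gata3 peaked in GABAergic subcluster 7, with 102 CPM (81.3 to 126) in NFD and 93.4 CPM (75.2 to 115) in HFD, and stood between 20.4 and 60.7 CPM in subclusters 1 to 4 of NFD. In subclusters 5, 6 and 8 it had 2.12, 3.19 and 8.25 CPM in NFD and 5.01, 0.919 and 0 in HFD. Tal1 followed the same division, with 1.06, 1.6 and 0 CPM in subclusters 5, 6 and 8 of NFD and 3.01, 0 and 0 in HFD. Sox14, which acts after Gata factors in some midbrain GABAergic neurons, was highest in subcluster 7 (16.6 CPM in NFD and 9.24 in HFD), on 14 and 9 UMIs. Gata2 was low in GABAergic nuclei (5.68 CPM in NFD and 5.11 in HFD). Of the 15 groups of neurons, serotonergic nuclei held the most (34 CPM in NFD and 34.2 in HFD). The endothelial and oligodendrocyte background held more, 55.7 CPM in NFD and 64.1 in HFD. This pool held 255 endothelial and 151 mature oligodendrocyte nuclei in NFD, and 97 and 77 in HFD. Whether its cells express Gata2 themselves was not tested, so its level is not read as a floor for this gene.

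The promoters of Gata3 and Tal1 are shown because these genes shared their pattern across the GABAergic subclusters. Each window runs from 250 bases before to 50 after the gene start in the RefSeq table for GRCm38.p6, 5′ to 3′ on the gene's strand, at chr2:9878551-9878850 on the minus strand for Gata3 and chr4:115056176-115056475 on the plus strand for the first of 2 Tal1 starts. Capitals mark AGATAA, a core sequence bound by Gata factors, read on both strands.
Gata3: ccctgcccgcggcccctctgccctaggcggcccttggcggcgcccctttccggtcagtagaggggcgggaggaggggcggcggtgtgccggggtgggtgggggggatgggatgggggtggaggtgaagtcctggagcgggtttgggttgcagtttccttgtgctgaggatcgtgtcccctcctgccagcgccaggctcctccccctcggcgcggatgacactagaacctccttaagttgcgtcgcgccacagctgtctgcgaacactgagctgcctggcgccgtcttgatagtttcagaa
Tal1: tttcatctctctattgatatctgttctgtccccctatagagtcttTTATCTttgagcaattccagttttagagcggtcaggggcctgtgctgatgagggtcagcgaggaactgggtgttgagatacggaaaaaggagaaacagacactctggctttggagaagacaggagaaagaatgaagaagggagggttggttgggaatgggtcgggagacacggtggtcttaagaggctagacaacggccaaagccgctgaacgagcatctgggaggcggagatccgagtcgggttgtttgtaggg
The Tal1 window held 1 match, on the opposite strand, and the Gata3 window held none. With only the first window listed for each gene, AGATAA was present in 3 of the 37 members with a promoter in the table (8.11%) and in 11.4% of all 27025 genes with one. A match describes letters in this window and not a site in use.

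The paired box genes marked GABAergic subclusters that were low in Gata3 as well as those that were high. Pax8 peaked in subcluster 6 with 144 CPM (115 to 176) in NFD and 176 CPM (152 to 203) in HFD, and had 85.9 CPM in NFD and 111 in HFD in subcluster 5, 103 CPM in NFD and 79.1 in HFD in subcluster 7 and 79.5 CPM in NFD and 84.8 in HFD in subcluster 2. Its relative Pax2 was more restricted and peaked in subcluster 7 (101 CPM in NFD and 71.9 in HFD), followed by subcluster 6 (46.3 CPM in NFD and 54.2 in HFD). In glutamatergic nuclei Pax8 and Pax2 stood at 2.38 CPM in NFD and 2.53 in HFD and 0.793 CPM in NFD and 0.466 in HFD. Pax7 was found at 20.7 CPM in NFD and 16.5 in HFD in subcluster 6 and 20.6 CPM in NFD and 2.68 in HFD in subcluster 8, on at most 18 UMIs per library, and was at or near 0 in the other subclusters except subcluster 1 in NFD (4.55 CPM). Pax6 peaked in subcluster 3 (16.6 CPM in NFD and 15.2 in HFD) among vlPAG neurons.

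Single homeobox and related genes labelled individual GABAergic subclusters. Six3, a homeobox gene of the anterior brain, stood at 37.9 CPM in NFD and 43.1 in HFD in subcluster 2, and next highest in subcluster 1 (6.32 CPM in NFD and 2.84 in HFD). Sim1 stood at 75.3 CPM in NFD and 64.6 in HFD in subcluster 5, which also held Slc17a6 in 52.1% of its nuclei and Slc32a1 in 6.55%. Otp, a hypothalamic and brainstem homeobox gene, stood at 76.6 CPM in NFD and 61.5 in HFD in subcluster 6 and 24.8 CPM in NFD and 26.8 in HFD in subcluster 8. Otx2, which sets the midbrain territory, peaked in subcluster 4 (59.8 CPM in NFD and 53.2 in HFD) and was close to 0 in subclusters 6 to 8. Each of these 4 genes kept its leading subcluster under both diets.

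Lhx1 and Lhx5, related LIM homeodomain genes, were spread over most GABAergic subclusters. Lhx1 peaked in subcluster 5 (46.7 CPM in NFD and 46.1 in HFD) and was lowest in subcluster 3 (2.37 CPM in NFD and 0.76 in HFD). Lhx5 was highest in subcluster 6 (22.3 CPM in NFD and 16.5 in HFD) and lowest in subcluster 5 (1.06 CPM in NFD and 1 in HFD), so the paralogues diverged in subclusters 3 and 5. In glutamatergic nuclei they stood at 2.68 CPM in NFD and 1.86 in HFD and 1.39 CPM in NFD and 1.2 in HFD. En2 and En1 were low and broad, with 14.4 CPM in NFD and 15.6 in HFD and 15.1 CPM in NFD and 18 in HFD in GABAergic nuclei, and En2 peaked in subcluster 6 (30.3 CPM in NFD and 33.1 in HFD).

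Foxp2 and Prox1 marked GABAergic subcluster 4, which was also led by the calcitonin receptor gene Calcr. Foxp2, a forkhead repressor, stood at 628 CPM (589 to 669) in NFD and 638 CPM (608 to 669) in HFD there and at 32.6 CPM in NFD and 16.2 in HFD in subcluster 2. In nuclei thinned to 1000 UMIs it was found in 38.4% of subcluster 4 in NFD and 37.7% in HFD, against 4.08% and 2.08% of the other GABAergic subclusters. At full depth the share in subcluster 4 was 68.9% and 76.9%. It was the only member found in at least 30% of 1 GABAergic subcluster and at least 3 times as often as in the others. Prox1, a homeobox gene, stood at 157 CPM in NFD and 169 in HFD in subcluster 4 and 80.7 CPM in NFD and 95 in HFD in subcluster 3.

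Subcluster 3, led by Reln, combined the highest levels of several broader factors. Satb1, a chromatin organiser, stood at 340.1 CPM in NFD and 371 in HFD there and between 7.09 and 59.8 CPM in the other subclusters of NFD. Nfib, a nuclear factor I gene, stood at 1269 CPM in NFD and 1428 in HFD, and its relative Nfix at 131 CPM in NFD and 121 in HFD. Nr4a2, better known from dopaminergic neurons, was found in subcluster 3 (20.2 CPM in NFD and 34.2 in HFD) and at no more than 4.13 CPM in the other subclusters. Zfhx3 and Zfhx4, large zinc finger homeobox genes, were lowest in this subcluster (69.4 CPM in NFD and 88.5 in HFD and 19 CPM in NFD and 28.5 in HFD) and highest in subcluster 7 (2167 CPM in NFD and 2200.5 in HFD and 642 CPM in NFD and 626 in HFD). In subclusters 7 and 8, Nfia and Nfib were low: Nfib had 41.4 CPM in NFD and 45.2 in HFD in subcluster 7, and Nfia had 52 CPM in NFD and 42.1 in HFD.

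The largest subcluster, 1, which was led by the glycine transporter gene Slc6a5, held Meis2, Tfap2b and Tshz2. Meis2, a homeobox gene, stood at 125 CPM in NFD and 161 in HFD there and between 3.19 and 36.1 CPM in the other subclusters of NFD. Tfap2b stood at 42.5 CPM in NFD and 67.7 in HFD, and at 0.408 CPM in NFD and 1.17 in HFD in subcluster 2. Zfpm2, a cofactor of Gata proteins, was high in subclusters 1, 2 and 3 (911, 1313 and 1214 CPM in NFD, 1113, 1419.9 and 1393 in HFD) and lowest in subcluster 4 in both libraries (214 CPM in NFD and 271 in HFD).

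The 4 glutamatergic clusters each held a different set of factors. Cluster 1, the largest and led by Tac1, was high in Tcf7l2, a Wnt pathway factor, with 367 CPM (352 to 383) in NFD and 415 CPM (401 to 429) in HFD, against 8.81, 6.31 and 12.5 CPM in clusters 8, 12 and 17 of NFD. Zfhx3 was found in 67.6% of cluster 1 nuclei thinned to 1000 UMIs and in 17.9% of those of the other 3 clusters. Cluster 8, led by Npsr1 and Nts, shared Bnc2 with cluster 1 (329 CPM in NFD and 306 in HFD in cluster 8, 224 CPM in NFD and 241 in HFD in cluster 1) and held Otx2 (36.9 CPM in NFD and 36.4 in HFD). Lhx2 and Lhx9 were present in clusters 1, 8 and 17 and nearly absent from cluster 12: Lhx9 had 82.8, 68.9, 55.9 and 1.05 CPM in clusters 1, 8, 17 and 12 of NFD. In GABAergic nuclei Lhx2 and Lhx9 stood at 1.37 CPM in NFD and 0.868 in HFD and 3.26 CPM in NFD and 2.27 in HFD.

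Cluster 12 was set apart by Lhx4, Sox5 and the nuclear factor I genes. Lhx4, known from motor and interneuron development, stood at 127 CPM (106 to 152) in NFD and 88.4 CPM (74.2 to 105) in HFD, and at 0.817 CPM in NFD and 0.591 in HFD in cluster 1. Sox5 was found in 33.5% of thinned cluster 12 nuclei in NFD and 38% in HFD, against 4.03% and 3.77% of the other glutamatergic clusters. For Nfib the shares were 58.6% and 10.1%, and for Nfia 39.4% and 10.5%, over both libraries. Ebf2 and Pbx3 also peaked in cluster 12 (537 CPM in NFD and 512 in HFD for Ebf2, 628 CPM in NFD and 653 in HFD for Pbx3). Zfhx3 and Zfhx4 were lower there than in the other 14 groups in both libraries (56.8 CPM in NFD and 42 in HFD for Zfhx3).

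Cluster 17, led by Spx, Prdm6 and Chat, was highest in Meis2 and Ebf1. Meis2 was found in 44% of its thinned nuclei in NFD and 59% in HFD, against 4.01% and 3.34% of the other glutamatergic clusters. Ebf1, a helix-loop-helix factor of early neurons, stood at 1536 CPM in NFD and 2109 in HFD, Meis1 at 110.1 CPM in NFD and 104 in HFD and Nr4a2 at 74.2 CPM in NFD and 67.5 in HFD. Its relatives Ebf2 and Ebf3 were lower there (59.2 CPM in NFD and 63.5 in HFD for Ebf2 and 28.3 CPM in NFD and 39.7 in HFD for Ebf3) than in clusters 1, 8 and 12, where Ebf3 stood at 252, 181 and 167 CPM in NFD. The small amounts of Zic1 and Zic4 found in vlPAG neurons also peaked in cluster 17 (13.3 CPM in NFD and 12.4 in HFD for Zic1 and 10.8 CPM in NFD and 5.46 in HFD for Zic4), while Zic2 was highest in GABAergic subcluster 6 (7.98 CPM in NFD and 3.67 in HFD).

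Serotonergic and dopaminergic nuclei shared Lmx1b and differed in Gata, En1, Foxp2 and Ebf1. Lmx1b stood at 119.6 CPM (105 to 136) in NFD and 113 CPM (101 to 126) in HFD in serotonergic and at 93.5 CPM (77.7 to 112) in NFD and 102 CPM (85.9 to 119.8) in HFD in dopaminergic nuclei, and below 7 CPM in GABAergic, glutamatergic and mixed nuclei. Gata3 stood at 72.4 CPM in NFD and 82.2 in HFD in serotonergic and 8.43 CPM in NFD and 2.81 in HFD in dopaminergic nuclei. En1 had its highest level in dopaminergic nuclei (52.9 CPM in NFD and 51.9 in HFD), with 25.6 CPM in NFD and 27.4 in HFD in serotonergic nuclei. Foxp2 (424 CPM in NFD and 409.9 in HFD), Ebf1 (875 CPM in NFD and 929 in HFD) and Nr4a2 (39.1 CPM in NFD and 39.3 in HFD) were high in dopaminergic nuclei. In serotonergic nuclei Foxp2 stood at 49.7 CPM in NFD and 21.6 in HFD, Ebf1 at 39.9 CPM in NFD and 17.8 in HFD and Nr4a2 at 1.48 CPM in NFD and 1.37 in HFD. Pbx3 was high in both (468 CPM in NFD and 409.8 in HFD in serotonergic and 317 CPM in NFD and 300.4 in HFD in dopaminergic nuclei).

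The mixed cluster was led by members although none of them took part in the clustering. Foxp2, Ebf2, Sim1 and Ebf3 were among its 10 leading genes. Foxp2 stood at 318 CPM in NFD and 301 in HFD, Ebf2 at 316 CPM in NFD and 337 in HFD, Ebf3 at 201 CPM in NFD and 219 in HFD and Sim1 at 20.5 CPM in NFD and 25.7 in HFD. Each of these values lay below that of the leading group and above the median of the 15 groups. The cluster made up 20.1% of NFD nuclei and 10.7% of HFD nuclei.

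The granule-like nuclei held Meis1, Zic1, Zic2, Zic4 and Pax6, and nearly all of them came from the HFD library. Meis1 was found in 38.4% of the thinned HFD nuclei of this group, against 3.23% of the other neurons. Zic1, Zic2 and Zic4, which are needed for cerebellar development, stood at 246, 60.4 and 38.5 CPM in HFD, and Pax6 at 102. In HFD the same nuclei held 874 CPM of Nfia, 801 of Nfib and 1178 of Zfpm2, and 60.4 of Zfhx3. Among vlPAG neurons Zic1 reached 0.457 CPM in NFD and 1.21 in HFD in the GABAergic class, and the granule marker Gabra6 reached 0.0653 and 2.61 CPM there, beside 79.9 CPM in the HFD endothelial and oligodendrocyte nuclei. A small group of 71 nuclei with markers of cerebellar molecular layer interneurons, 61 of them from HFD, held Zfpm2 (2548 CPM in HFD) and Tfap2b (202 CPM).

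Combinations were then counted per nucleus. At 1000 UMIs a nucleus held a median of 3 members in each of the GABAergic, glutamatergic, mixed and dopaminergic classes in both libraries, and 2 in the serotonergic class. For each of the 1035 pairs of members, the number of nuclei with both was set against the number from the product of their shares, and a pair was counted when at least 20 nuclei held both and the observed number was at least 2 times the product in each library. The rule counted 7 pairs in GABAergic nuclei, of 171 with at least 20 nuclei, 5 of 141 in glutamatergic nuclei, 1 of 112 in mixed nuclei, 1 of 15 in dopaminergic nuclei and none of 8 in serotonergic or 42 in granule-like nuclei. These are descriptions of 2 libraries, with no test.

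The 3 Ebf genes formed all of their possible pairs in GABAergic nuclei. Ebf2 and Ebf3 were found together in 22 nuclei against 7.32 in NFD and 13 against 4.36 in HFD. For Ebf1 and Ebf2 there were 30 nuclei against 10.6 in NFD and 10 against 4.68 in HFD, and for Ebf1 and Ebf3 27 nuclei against 13.4 in NFD and 22 against 7.39 in HFD. Ebf3 also went with Sox6 (18 nuclei against 3.99 in NFD and 12 against 2.01 in HFD), which was the largest excess in the class. Only 3735 of the 4742 nuclei of the class had a UMI of Slc32a1, Gad1 or Gad2, and the pairs were counted in all. Glutamatergic cluster 1 held 376 CPM of Ebf2, 252 of Ebf3 and 110 of Sox6 in NFD. The part of nuclei without a GABA marker in these pairs was not tested. With nuclei classed by their own transmitter UMIs, 3 GABAergic pairs were counted. Among glutamatergic nuclei, where most clusters were high in Ebf genes, Ebf1 and Ebf2 were together about as often as their product: at 5000 UMIs per nucleus, 292 nuclei against 286 in NFD and 381 against 380.1 in HFD.

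The promoter of Ebf3 is shown as that of the Ebf gene that took part in the most counted pairs, at chr7:137314396-137314695 on the minus strand of GRCm38.p6, from the RefSeq table. Capitals mark CCCNNGGG, the core of the palindrome bound by Ebf factors, read on both strands.
Ebf3: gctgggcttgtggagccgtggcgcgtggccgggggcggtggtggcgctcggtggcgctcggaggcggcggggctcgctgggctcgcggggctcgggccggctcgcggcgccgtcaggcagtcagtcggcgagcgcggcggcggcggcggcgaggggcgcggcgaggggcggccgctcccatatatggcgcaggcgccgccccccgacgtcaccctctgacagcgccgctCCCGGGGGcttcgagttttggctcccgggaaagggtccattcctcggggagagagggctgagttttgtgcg
It held 1 match. The 2 windows of Ebf1 held none, and with only the first window listed for each gene CCCNNGGG was present in 4 of 37 members (10.8%) and 13.4% of all genes in the table.

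The other 3 GABAergic pairs joined factors that were high in subcluster 3. Satb1 and Prox1 were found together in 16 nuclei against 3.69 in NFD and 13 against 4.36 in HFD, Meis1 and Satb1 in 13 nuclei against 4.79 in NFD and 11 against 5.27 in HFD, and Meis1 and Nfix in 12 nuclei against 4.85 in NFD and 9 against 4.45 in HFD. When the product was taken within each cluster, 2 of the 7 pairs were still counted, Ebf2 with Ebf3 and Ebf3 with Sox6, so the other 5 did not pass once the levels of the clusters were taken into account. With the product taken within clusters none of the 5 glutamatergic pairs was counted. They were Nfia with Nfib (84 nuclei against 31.6 in NFD and 99 against 34.7 in HFD), Nfib with Nfix (13 nuclei against 3.06 in NFD and 13 against 3.75 in HFD), Nfia with Sox5 (36 nuclei against 15.2 in NFD and 49 against 17.1 in HFD), Nfib with Sox5 (47 nuclei against 17.3 in NFD and 53 against 19.8 in HFD) and Meis1 with Meis2 (11 nuclei against 3.79 in NFD and 13 against 3.63 in HFD). Lhx9 and Meis2 made the mixed pair (12 nuclei against 5.43 in NFD and 8 against 3.25 in HFD), and Nfia and Nfib the dopaminergic one (12 nuclei against 3.89 in NFD and 8 against 1.49 in HFD).

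**Figure D2:**
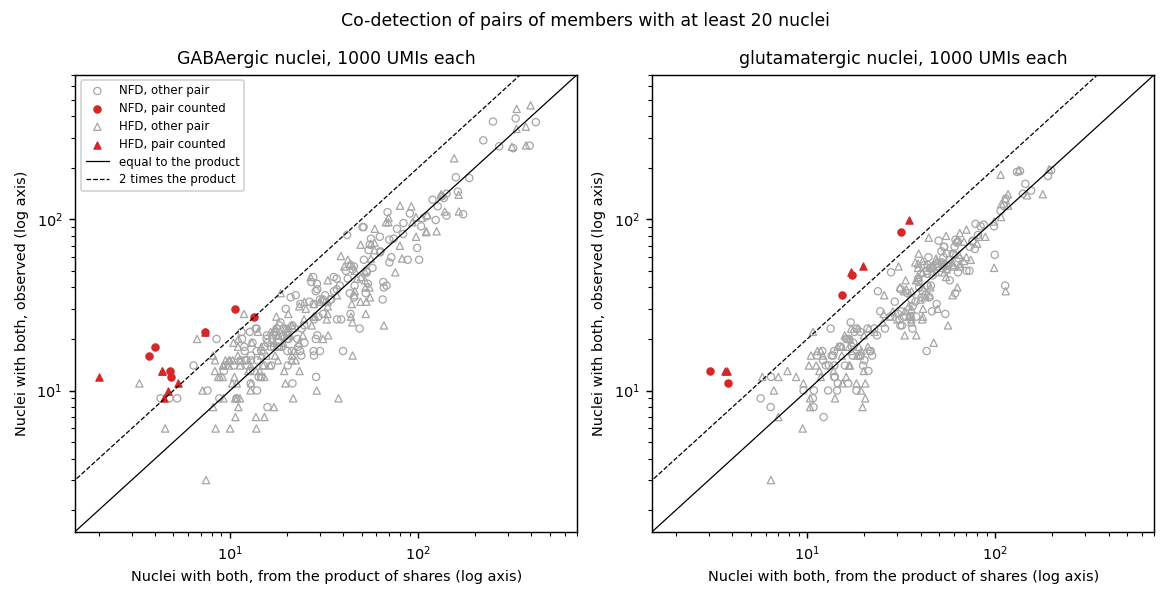
Number of nuclei with a UMI of both members of a pair (vertical log axis) against the number from the product of their shares (horizontal log axis), in GABAergic nuclei on the left and glutamatergic nuclei on the right, for pairs with at least 20 nuclei over both libraries. Circles are NFD and triangles HFD, and the filled red symbols are the 7 GABAergic and 5 glutamatergic pairs at or above the dashed line, 2 times the product, in both libraries.

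Some factors were found together less often than the product. In GABAergic nuclei, Meis2 and Nfia shared 17 nuclei against 39.9 in NFD and 9 against 37.7 in HFD, Meis2 and Nfib 23 nuclei against 48.8 in NFD and 16 against 44.8 in HFD, and Zfhx4 and Satb1 12 nuclei against 28.7 in NFD and 10 against 28.9 in HFD. These were the 3 pairs at no more than 0.5 times the product in both libraries, of 163 with a product of at least 20. Glutamatergic nuclei held 13 such pairs of 156. The largest deficit was that of Tcf7l2 with Nfib, 4 nuclei against 41.6 in NFD and 6 against 37.6 in HFD. Tcf7l2 was also among these pairs with Nfia and with Sox5. All these products were taken over the whole class, which spans clusters that differ in these genes. In HFD Tcf7l2 stood at 415 CPM in cluster 1 and 0 in cluster 12. Nfib was found in 58.6% of thinned cluster 12 nuclei and 10.1% of the others. Whether the deficits hold within clusters is not given here. Nfib and Zfhx3 shared 41 nuclei against 113 in NFD and 38 against 113 in HFD.

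More combinations were visible in deeper nuclei. With nuclei of at least 5000 UMIs thinned to that depth, 1325 NFD and 1841 HFD GABAergic nuclei remained and 17 pairs were counted. They included Foxp2 with Prox1 (57 nuclei against 21.3 in NFD and 89 against 33.1 in HFD), Sim1 with Ebf1 (21 nuclei against 5.12 in NFD and 30 against 8.55 in HFD), Meis2 with Tfap2b (15 nuclei against 6.48 in NFD and 31 against 11.4 in HFD) and Satb1 with Nr4a2 (8 nuclei against 2.04 in NFD and 28 against 8 in HFD). Foxp2 and Prox1, Meis2 and Tfap2b, and Satb1 and Nr4a2 each shared their leading GABAergic subcluster. Otx2 and Six3, with different leading subclusters, were counted too (6 nuclei against 2.93 in NFD and 25 against 7.38 in HFD). In glutamatergic nuclei 16 pairs were counted, led by Meis2 with Nr4a2 (27 nuclei against 4.51 in NFD and 26 against 4.43 in HFD), the factors of cluster 17, and Lhx4 with Nfix (10 nuclei against 2.31 in NFD and 11 against 2.56 in HFD), those of cluster 12. Over all named neurons at this depth, Gata3 and Tal1 were found together in 25 nuclei against 12.5 in NFD and 43 against 18.9 in HFD, Lhx2 and Lhx9 in 57 nuclei against 19.9 in NFD and 86 against 28.5 in HFD, and En1 and Lmx1b in 23 nuclei against 7.55 in NFD and 27 against 10.1 in HFD. This product spans classes high and low in these genes. Within glutamatergic nuclei, Lhx2 and Lhx9 shared 53 nuclei against 40.7 in NFD and 74 against 59.9 in HFD, and were not counted.

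Paralogues differed in how often they were found together. At 5000 UMIs in GABAergic nuclei, Pax2 and Pax8 shared 23 nuclei against 12.6 in NFD and 34 against 18 in HFD. En1 and En2 likewise exceeded the product, with 9 nuclei against 4.41 in NFD and 20 against 13.2 in HFD. Zfhx3 and Zfhx4 shared 601 nuclei against 509 in NFD and 809 against 637 in HFD, and Gata2 and Gata3 8 nuclei against 5 in NFD and 8 against 6.79 in HFD. Foxp1 and Foxp2 were together almost exactly as often as their product (93 nuclei against 93 in NFD and 114 against 116 in HFD). Lhx1 and Lhx5 were near the product in NFD and below it in HFD (14 nuclei against 12.1 in NFD and 4 against 10.9 in HFD). Sox5 and Sox6 did not exceed the product by 2-fold in either library (14 nuclei against 13.5 in NFD and 8 against 14.1 in HFD), and at most 2 GABAergic nuclei held a pair of the Zic genes. These products were taken over the whole class and not within subclusters, which differ in these genes. At full depth Pax2 and Pax8 were together in 24.6% of subcluster 6, 19.3% of subcluster 7 and 0% of subcluster 3 nuclei of HFD.

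The HFD and NFD libraries were then compared factor by factor. A member was called higher or lower where both libraries together held at least 100 of its UMIs and the exact 95% interval of the log2 ratio of CPM, HFD over NFD, lay wholly above 0.32 or below -0.32. The interval covers counting error only, and a difference between these 2 libraries cannot be told apart from one between the pools of mice or the preparations. The members held more UMIs than a typical gene, with a median of 1284 against 769 in GABAergic nuclei, so their intervals were narrower than those behind the shares of all genes given beside each count. The median log2 ratio over all genes that could be compared was -0.05 in GABAergic and -0.06 in glutamatergic nuclei.

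Few factors differed between the diets in GABAergic nuclei by this rule. Of the 36 members with enough UMIs, 2 were called higher in HFD, against 0.551% of all 12890 genes with as many UMIs, and 3 lower, against 1.81%. Their median log2 ratio was 0.00, with 18 above and 18 below 0. The log2 ratio was -0.06 (-0.22 to 0.11) for Gata3, 0.09 (-0.11 to 0.30) for Tal1 and -0.26 (-0.53 to 0.01) for Lhx5. These 95% counting intervals, in parentheses, included 0. Pax8 (0.26, 0.13 to 0.39), Lhx1 (-0.30, -0.48 to -0.12), Pax2 (-0.35, -0.61 to -0.08), Prox1 (0.39, 0.22 to 0.55) and Sim1 (0.50, 0.19 to 0.82) had intervals that left out 0 and were not called. The 10 members below 100 UMIs were Sox14, Lhx2, Lhx4, Lhx9, Lmx1b, Pax6, Pax7, Zic1, Zic2 and Zic4. Of these, Pax7 had 49 UMIs in NFD and 23 in HFD, a log2 ratio of -1.53 (-2.31 to -0.78).

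**Figure D3:**
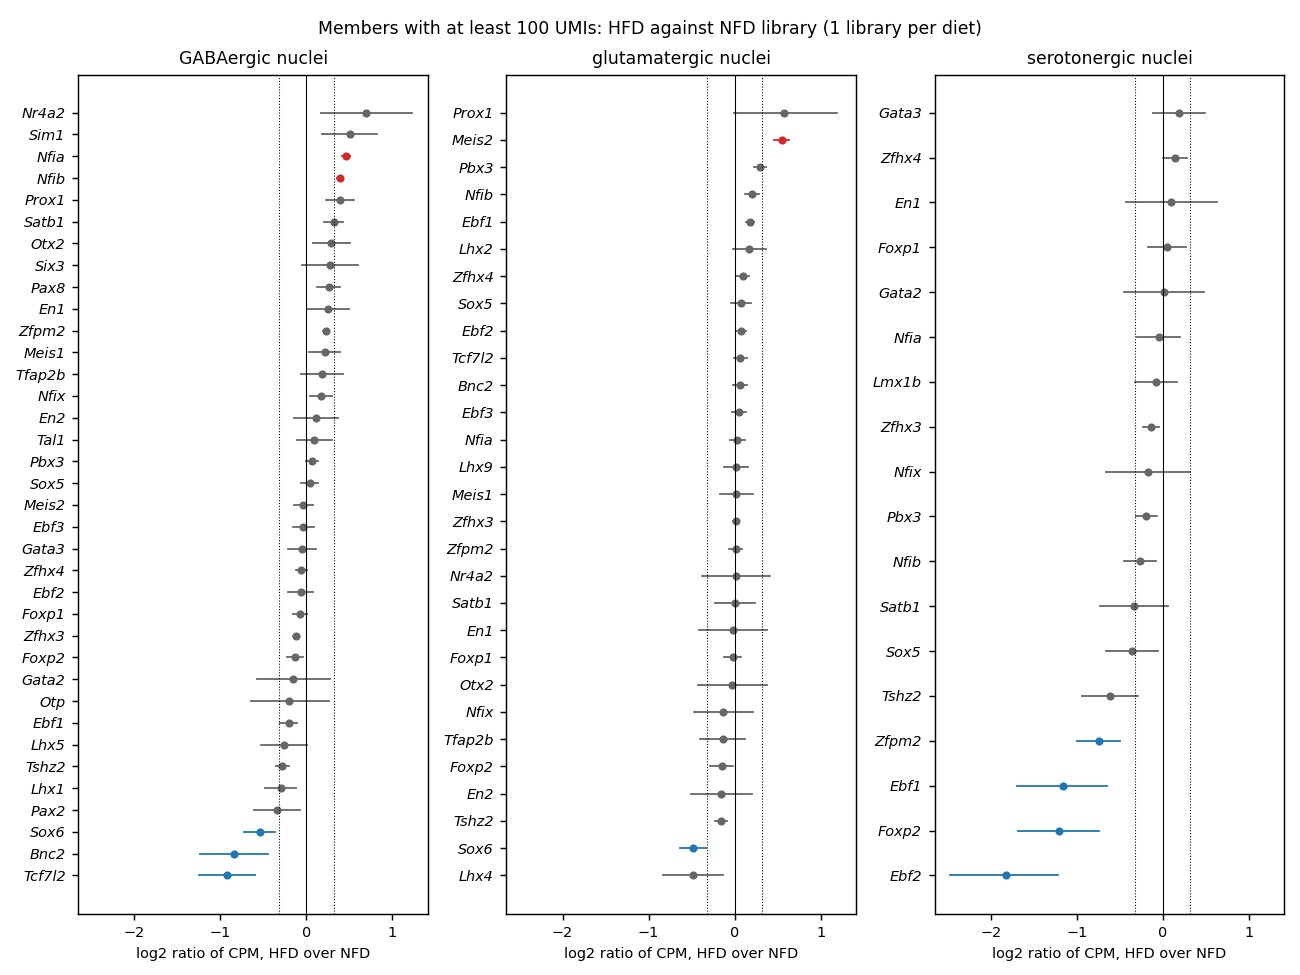
The log2 ratio of CPM in the HFD library over the NFD library (horizontal axis) with its 95% counting interval for each member with at least 100 UMIs, in GABAergic, glutamatergic and serotonergic nuclei. Dotted lines mark 0.32 and -0.32, red marks the 3 members called higher (Nfia and Nfib in GABAergic, Meis2 in glutamatergic nuclei) and blue the 8 called lower.

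Nfia and Nfib, which act in late-born neurons and in the formation of glia, were the factors higher in HFD GABAergic nuclei. Nfia stood at 406 CPM in NFD and 558 in HFD, a log2 ratio of 0.46 (0.41 to 0.50), and Nfib at 539.8 CPM in NFD and 707 in HFD, a ratio of 0.39 (0.35 to 0.43). With the ratio taken within the subclusters and the rest of the class it was smaller, 0.27 for Nfia and 0.23 for Nfib, so neither passed 0.32 there. By the call rule Nfia was higher in subclusters 1 and 2 and Nfib in subcluster 1 (0.56, 0.44 to 0.69). Of all genes with enough UMIs, 0.612% were called higher in subcluster 1 and 0.565% in subcluster 2. For Nfia the log2 ratio was 0.50 (0.36 to 0.64) in subcluster 1 and 0.43 (0.35 to 0.52) in subcluster 2. It was 0.20, 0.27, 0.18 and 0.17 in subclusters 3 to 6, which were not called. In subclusters 7 and 8, where both were low, Nfia was -0.31 (-0.96 to 0.34) and -1.21 (-2.20 to -0.31). The third gene of the family, Nfix, had a ratio of 0.17 (0.04 to 0.30).

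A difference of the same direction was found in the pooled endothelial and mature oligodendrocyte nuclei, and a smaller or opposite one in glutamatergic and serotonergic nuclei. The pool held 255 endothelial and 151 oligodendrocyte nuclei in NFD, and 97 and 77 in HFD. The part of this make-up in its ratios was not tested. In the endothelial and oligodendrocyte nuclei the log2 ratio was 0.42 (0.27 to 0.57) for Nfia and 0.54 (0.35 to 0.72) for Nfib, in glutamatergic nuclei 0.03 (-0.05 to 0.12) and 0.20 (0.12 to 0.28), and in serotonergic nuclei -0.05 (-0.29 to 0.20) and -0.26 (-0.45 to -0.08). The granule-like nuclei were rich in both genes, and their marker Gabra6 stood at 0.0653 CPM in NFD and 2.61 in HFD GABAergic nuclei. In the HFD granule-like nuclei themselves Gabra6 stood at 764 CPM beside 874 of Nfia, and in the HFD endothelial and oligodendrocyte nuclei at 79.9 CPM. The part of granule RNA in the difference in the other nuclei was not tested.

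**Figure D4:**
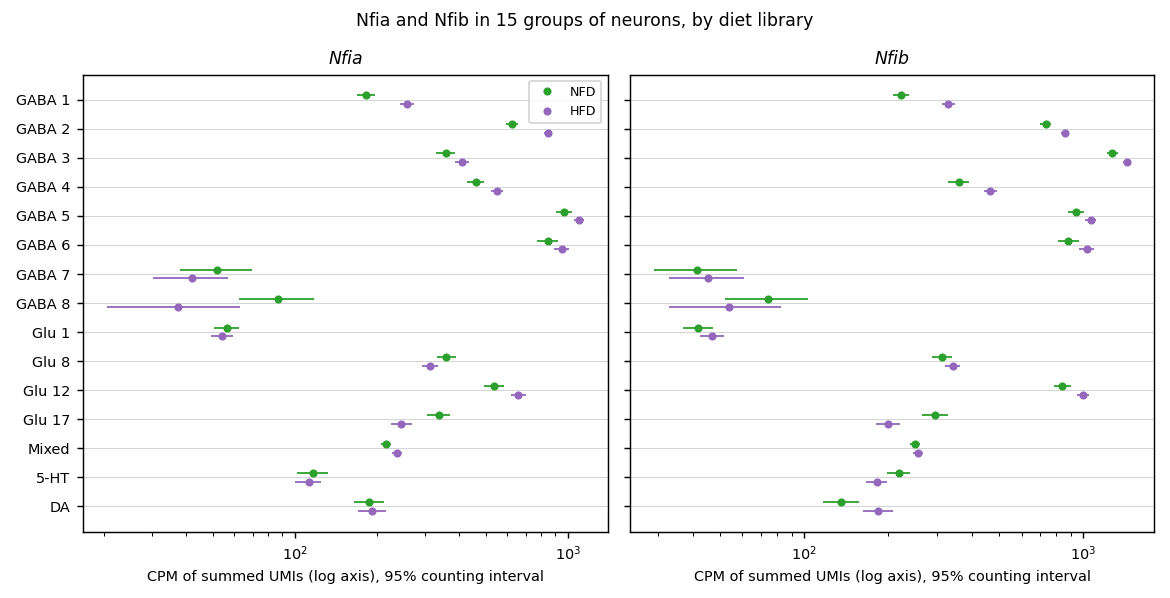
CPM of Nfia (left) and Nfib (right) on a log axis in 15 groups of neurons, with exact 95% counting intervals, for the NFD library in green and the HFD library in purple. The purple point lies above the green one in GABA 1 to GABA 6 for both genes, and both genes are lowest in GABA 7, GABA 8 and Glu 1.

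Tcf7l2, Bnc2 and Sox6 were lower in HFD GABAergic nuclei, at low levels. Tcf7l2 stood at 12.7 CPM in NFD and 6.71 in HFD, a log2 ratio of -0.92 (-1.25 to -0.60), on 195 and 139 UMIs. Bnc2 stood at 8.29 CPM in NFD and 4.63 in HFD, a ratio of -0.84 (-1.24 to -0.45). Both are factors of the glutamatergic clusters, where the ratios were 0.07 (-0.01 to 0.14) and 0.06 (-0.02 to 0.14). Within the GABAergic class, much of the difference lay in the nuclei outside the subclusters, 698 in NFD and 309 in HFD, which had no UMI of Slc32a1, Gad1 or Gad2: Tcf7l2 had 26.4 CPM in NFD and 8.44 in HFD there, and Bnc2 17.8 and 4.42. Subcluster 1 showed the same for Tcf7l2 (18.2 CPM in NFD and 5.45 in HFD). Sox6 stood at 33.1 CPM in NFD and 22.7 in HFD, a ratio of -0.55 (-0.73 to -0.36), with -1.06 (-1.48 to -0.65) in subcluster 3, -2.86 (-3.92 to -1.90) in subcluster 5, on 41 and 12 UMIs and so below the 100 needed for a call, and 0.44 (0.21 to 0.67) outside the subclusters. Taken within the subclusters and the rest of the class, the Sox6 ratio was -0.22, which did not pass. When each nucleus was classed by its own transmitter UMIs rather than by cluster, the Sox6 ratio was 0.05. The Tcf7l2 ratio was -0.22 with coarser clusters (resolution 0.3), and the Bnc2 ratio -0.29 without the 6% of nuclei with the highest doublet scores.

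Glutamatergic nuclei held 1 factor higher and 1 lower of 29 with enough UMIs, against 0.556% and 2.05% of all genes. Meis2 was higher, with 144 CPM in NFD and 209.7 in HFD and a log2 ratio of 0.55 (0.46 to 0.64). Sox6 was lower, with 69 CPM in NFD and 49.5 in HFD and a ratio of -0.48 (-0.63 to -0.33). With the members kept among the variable genes the Meis2 ratio was 0.32, and with the transmitter class set per nucleus the Sox6 ratio was -0.06. Meis2 was called in cluster 17 (0.60, 0.49 to 0.71), while in cluster 1 the ratio was 0.15 (-0.02 to 0.32). In GABAergic nuclei as a whole Meis2 had a ratio of -0.03 (-0.14 to 0.07), with 0.37 (0.20 to 0.54) in subcluster 1, where it was highest, and -1.88 (-3.01 to -0.83) and -1.92 (-2.81 to -1.07) in subclusters 4 and 5, where it had under 100 UMIs.

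Cluster 17 held the most calls of any glutamatergic cluster. Of 18 members, 4 were called higher, against 2.47% of 5026 genes, and 2 lower, against 1.55%. The higher ones were Meis2 (775 CPM in NFD and 1176 in HFD), Ebf1 (0.46, 0.38 to 0.54 on the log2 scale), Bnc2 (0.74, 0.37 to 1.13) and Pbx3 (0.90, 0.70 to 1.11). The lower ones were Nfib (-0.56, -0.77 to -0.35) and Zfpm2 (-0.91, -1.20 to -0.61). In this cluster Nfib thus differed in the opposite direction from the GABAergic class. The cluster had 116 and 122 nuclei. In cluster 12, Zfpm2 was called higher (0.71, 0.42 to 1.01), 1 of 14 members, against 0.671% of genes, and none lower, against 0.763%. None of 23 members was called in cluster 1 (backgrounds 0.345% higher and 1.44% lower) and none of 18 in cluster 8 (0.244% and 0.822%).

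Serotonergic nuclei were lower in 4 of 18 factors in HFD, against 1.7% of 6310 genes, and higher in none, against 1.19%. Foxp2 stood at 49.7 CPM in NFD and 21.6 in HFD (log2 ratio -1.20, -1.68 to -0.74), Ebf1 at 39.9 CPM in NFD and 17.8 in HFD (-1.16, -1.69 to -0.64) and Ebf2 at 38.9 CPM in NFD and 11 in HFD (-1.83, -2.47 to -1.22). Zfpm2 had a ratio of -0.75 (-0.99 to -0.50). Foxp2 stood below its level in the endothelial and oligodendrocyte background in both libraries, and Ebf2 was lower in HFD in that background too. The part of RNA from other cells in these differences was not tested. Lmx1b and Gata3, both high in this class, were not called: Lmx1b had -0.08 (-0.33 to 0.16) and Gata3 0.18 (-0.12 to 0.49). Median depth in this class was 5676 UMIs in NFD and 16128 in HFD. Dopaminergic nuclei had no call among 19 members (backgrounds 0.638% higher and 0.594% lower). In mixed nuclei none of 34 was called higher, against 0.897%, and Sox5 (-0.83, -1.01 to -0.65) and Sox6 (-0.99, -1.22 to -0.77) were called lower, against 1.07%.

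Foxp2 was alike in both libraries in the 3 groups where it was highest, and was called lower in HFD in GABAergic subclusters 1, 2 and 8. In GABAergic subcluster 4 the log2 ratio was 0.02 (-0.09 to 0.14), in dopaminergic nuclei -0.05 (-0.22 to 0.12) and in mixed nuclei -0.08 (-0.16 to -0.01). In subclusters 1, 2 and 8 it was -1.40 (-1.71 to -1.10), -1.01 (-1.50 to -0.53) and -1.63 (-2.39 to -0.92). In subclusters 3 and 5, with under 100 UMIs each, it was -2.07 (-3.00 to -1.21) and -1.31 (-2.08 to -0.55), and in glutamatergic cluster 8, which was not called, 0.44 (0.04 to 0.86). Of all genes with enough UMIs, 1.09% were called lower in subcluster 1, 1.23% in subcluster 2 and 3.9% in subcluster 8. Among nuclei of other kinds, Foxp2 stood at 69.6 and 57.4 CPM in endothelial and oligodendrocyte nuclei of NFD and HFD, so its low levels in NFD subclusters 1 to 3 (80.1, 32.6 and 25.5 CPM) were near or below the level in nuclei that should lack it. In serotonergic nuclei Foxp2 was also below that level in both libraries. The mixed cluster, which is rich in Foxp2, made up 20.1% of NFD and 10.7% of HFD nuclei, and the part of free RNA from it in the levels elsewhere was not tested.

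The Ebf genes showed a similar picture in serotonergic nuclei and subcluster 1 and a different one in other groups. In subcluster 1 the log2 ratio was -0.73 (-0.98 to -0.49) for Ebf1, -1.19 (-1.70 to -0.70) for Ebf2 and -0.59 (-1.02 to -0.17) for Ebf3. In subcluster 4 it was 1.02 (0.59 to 1.46), 1.80 (0.63 to 3.20) and 0.43 (-0.01 to 0.89). Of these 6 ratios, those of Ebf1 and Ebf2 in subcluster 1 and of Ebf1 in subcluster 4 met the call rule, and Ebf2 in subcluster 4 had under 100 UMIs. Of all genes, 1.09% were called lower in subcluster 1 and 0.531% higher in subcluster 4. In mixed nuclei, the ratios were -0.09 (-0.16 to -0.01), 0.09 (0.02 to 0.17) and 0.12 (0.03 to 0.22). Ebf2 was lower in HFD in the endothelial and oligodendrocyte nuclei (-1.63, -2.26 to -1.03) and Ebf1, which blood vessel cells express, was not (0.38, 0.25 to 0.52).

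**Figure D5:**
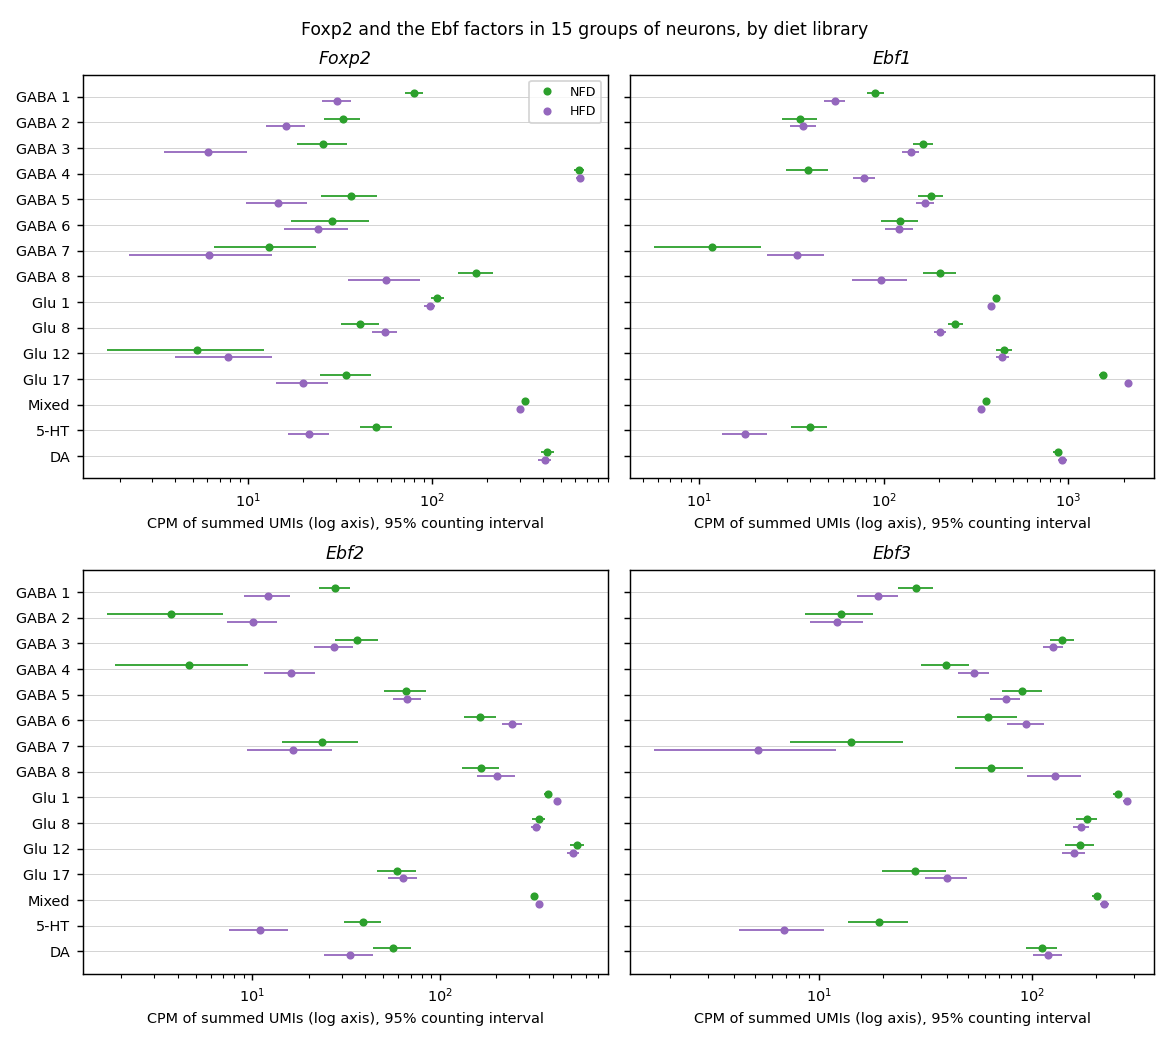
CPM of Foxp2, Ebf1, Ebf2 and Ebf3 on log axes in 15 groups of neurons, with exact 95% counting intervals, for NFD in green and HFD in purple. The Foxp2 points of the diets lie together in GABA 4, Mixed and DA, where the gene is high, and the HFD point lies lower in GABA 1, 2, 3, 5 and 8 and in 5-HT.

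Other factors differed within single GABAergic subclusters. Tfap2b was higher in HFD in subcluster 1 (42.5 CPM in NFD and 67.7 in HFD, log2 ratio 0.67, 0.39 to 0.96). Satb1 was higher in subcluster 4 (0.76, 0.42 to 1.12), and Pbx3 in subclusters 6 (0.88, 0.40 to 1.38) and 8 (1.18, 0.82 to 1.54). Tshz2 was lower in subclusters 4 (-1.34, -1.70 to -0.99) and 8 (-1.30, -1.79 to -0.82). Subcluster 8 had 96 and 46 nuclei. Of its 9 members with enough UMIs, 1 was called higher, against 2.58% of all genes, and 3 lower, against 3.9%. In subcluster 1, 3 of 24 were called higher, against 0.612%, and 4 lower, against 1.09%. In subcluster 4, 2 of 20 were called higher, against 0.531%, and 1 lower, against 0.581%. In subcluster 6, 1 of 14 was called higher, against 1.05%, and none lower, against 0.558%. Not every call in subclusters 1 and 8 is named here.

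A wider list of 83 lineage factors was examined by the same rules. In GABAergic nuclei 26 of them had enough UMIs, and 2 were called higher in HFD, where 0.551% of all genes were: Pbx4 (31.5 and 46.8 CPM in NFD and HFD, log2 ratio 0.57) and Nr4a3, an activity-induced nuclear receptor (2.87 and 9.41 CPM, 1.71). In glutamatergic nuclei the same 2 genes were called higher, of 25, beside 0.556% of all genes, at 0.51 and 1.20, and none was lower in either class. Beside 0.897% of all genes in mixed, 0.638% in dopaminergic and 1.55% (lower) in cluster 17 nuclei, mixed nuclei were higher in Pbx4 and Pax5 and dopaminergic nuclei in Rorb (0.85), while Pax5 was lower in glutamatergic cluster 17 (-0.83). Tcf4 was the factor of this list found in at least 30% of 1 group and 3 times as often as in the rest, in GABAergic subcluster 6 and granule-like nuclei.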

How the data were processed

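Single-nucleus RNA was measured with the 10x Genomics 3′ v3 chemistry in 1 NFD and 1 HFD library. The authors demultiplexed the reads, aligned them to the mouse genome GRCm38 and counted UMIs per gene and barcode with Cell Ranger, whose matrix header names version 4.0.0, and deposited these as raw count matrices. The handling of reads from introns was not found in the labels, headers or methods used.

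From the deposited counts, nuclei with over 500 UMIs and under 20% mitochondrial counts were kept. Of 7625 NFD barcodes 125 were removed and of 6813 HFD barcodes 491, which left 41042988 and 54587419 UMIs. Both libraries were clustered together in Seurat 5.3.0 (R 4.3.3) on 2000 variable genes less the members, 20 principal components and resolution 0.5, giving 23 clusters. GABAergic nuclei with a UMI of a GABA marker were clustered again at resolution 0.1. Scrublet (scanpy 1.11.5) called 1 nucleus in NFD and 0 in HFD, which is too few to be usable, so no doublets were removed. Levels are CPM of summed UMIs with exact Poisson intervals, ratios carry exact conditional binomial intervals, and shares were counted in nuclei thinned to 1000 UMIs (Python 3.11.15, numpy 2.4.6, scipy 1.17.1, pandas 2.3.3, matplotlib 3.10.9). Intervals cover counting error only, at 95% confidence. The interval code was checked on simulated Poisson counts, the model the intervals assume, so the check does not cover spread between nuclei or subclusters. With 1 library per diet no test was made. All 46 members are named, with full values for those past the share and pair rules. For the call rule this holds for the GABAergic, glutamatergic, mixed, serotonergic and dopaminergic classes and the glutamatergic clusters. Calls within single GABAergic subclusters are named only in part. The members, the other lineage factors, the markers and these rules were chosen with earlier results of these data known. The promoter windows come from RefSeq, where 37 of the 46 members had an entry. Nfib, Foxp2 and Ebf2 had none. The result of 1 of the other lineage factors is not reported here.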

Additional observations from a re-analysis of the deposited data

Results flagged for a closer look

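The barcodes left out by the filter on UMIs and mitochondrial counts held UMIs of the members, although they enter no comparison. Members made up 2044 CPM in the 125 removed NFD barcodes, on 280 UMIs, and 2249.8 CPM in the 491 removed HFD barcodes, on 1229 UMIs. In the nuclei kept they made up 4496 CPM in NFD and 4732 in HFD.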

How the results depend on the processing

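No paired analysis was possible because each diet has 1 library, and for the same reason no replicate could be left out. Of 80 values recomputed for the counts of members, pairs and shares, 45 stayed within 1.5 times the main count. The 3 members lower in HFD GABAergic nuclei became 1 with the members kept among the variable genes, at resolution 0.3 and under 5% mitochondrial counts. They also became 1 when a gene needed at least 500 UMIs for a call, and 6 with the mean over nuclei. The 2 higher became 9 with the mean over nuclei, 4 with the Mantel-Haenszel ratio over subclusters and 5 by point value. Under the Mantel-Haenszel ratio neither Nfia (0.27) nor Nfib (0.23) was among the 4, and Sox6 (-0.22) was no longer among those lower. In glutamatergic nuclei the 1 lower became 0 at resolution 1 and at a transmitter threshold of 3, and 2 with the members kept, under 5% mitochondrial counts, with the mean over nuclei, over clusters by Mantel-Haenszel and by point value. The 1 higher became 0 with the members kept and 2 with transmitter class per nucleus, the mean over nuclei, the Mantel-Haenszel ratio and the point value.

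The 7 GABAergic pairs became 4 with the members kept and under 5% mitochondrial counts, 3 with transmitter class per nucleus, 17 at 5000 UMIs, 28 without thinning and 2 within clusters. The 5 glutamatergic pairs became 1 at resolution 0.3, 2 under 5% mitochondrial counts, without the 6% highest doublet scores and at a threshold of 3, 13 at 2000 UMIs, 16 at 5000, 19 without thinning and 0 within clusters. The members found in at least 10% of GABAergic nuclei were 8 at 1000 UMIs and 13 at 2000. The Sox6 ratio in GABAergic nuclei turned from -0.55 to 0.0463 with transmitter class per nucleus. The causes were not tested. The alternatives at 5000 UMIs, by point value and over subclusters were added after the data were seen. At 1000 UMIs most factors were found in few nuclei, and 171 GABAergic and 141 glutamatergic pairs of 1035 reached the 20 nuclei a pair needs, so the others could not be judged at this depth.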
